A study of Mus musculus with 10 samples.

Results

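The mRNAs of the 3 Foxa genes, Foxa1, Foxa2 and Foxa3, were followed through the lists of N6-methyladenosine (m6A) peaks of mouse liver after birth. Members were chosen by name, as every row with one of these 3 gene names, which gave 30 peaks of the 32804 peaks in the 4 distinct lists. The study reported more peaks at each age than these lists hold, with no reason given, which also limits any reading of a missing peak. The livers came from wild-type C57BL/6J mice at 5 ages: the first day of life, then the ages of 1, 2, 4 and 8 weeks, with no transgene, deletion or treatment named in any group. An m6A antibody was used to enrich fragmented RNA (IP), which was set against the unenriched RNA (input), with 1 IP and 1 input sample labelled at each age. The table labelled 4 weeks repeated the table labelled 2 weeks in every peak, so it was counted once, is called the 2-week list, and gives no value for 4 weeks of its own. The files alone do not settle which of the 2 ages it describes. This list held peaks in 5521 genes. The gene count published for the younger age is close to this, and that for the older age is clearly lower. For the other lists the counts published for their own ages were close as well. By gene count the 2-week label is thus the likelier one. There was 1 list per age and no read count, so depth is unknown, no spread between animals could be measured and no difference between ages could be tested. The lists hold no expression values. In bulk tissue fewer cells of a type and less RNA per cell cannot be told apart, and a stretch without a called peak is not evidence of unmethylated RNA.

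FOXA proteins are pioneer transcription factors. They bind DNA through the forkhead domain, a winged helix whose fold resembles that of a linker histone, and can engage their sites on nucleosomes and open the chromatin for other factors. In the mouse, Foxa1 and Foxa2 are jointly required for the liver to be specified from the foregut endoderm, and Foxa3 is a paralogue expressed in liver and gut that supports metabolic genes. m6A is placed on mRNA by a complex whose catalytic subunit is METTL3, mostly at adenosines in the core GGAC, and is typically dense in long internal exons and in the last exon near the stop codon.

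All 3 mRNAs carried peaks in all 4 distinct lists. The day 1 list held 7 Foxa peaks, the 1-week list 7, the 2-week list 10 and the 8-week list 6. Each gene had at least 2 peaks in all 4 lists, which held for 4.57% of the 8641 genes that had any peak. At least 1 peak in all 4 lists was found for 23.8% of these genes, and a peak in a given list for 73.3% at day 1, 64% at 1 week, 63.9% at 2 weeks and 39.9% at 8 weeks. Foxa2 reached 2 peaks at 8 weeks only with a peak whose false discovery rate was 0.368. When every list was cut to the 4808 peaks of the shortest one by p-value, the 2-week list kept 4 of its 10 Foxa peaks and the other lists kept 5, 5 and 6, with all 3 genes still present in each. After this cut Foxa1 and Foxa3 each had fewer than 2 peaks at 2 weeks, and Foxa1 also had fewer than 2 at day 1 and 1 week.

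Coordinates are those of the mm10 assembly. All 3 genes lie on the minus strand. Foxa1 (chr12:57540628-57546121) has an mRNA of 3191 nt in 2 exons with 1407 nt of coding sequence, Foxa2 (chr2:148042877-148046969) one of 2128 nt in 3 exons with 1380 nt, and Foxa3 (chr7:19013284-19023538) one of 2037 nt in 2 exons with 1062 nt. The last exon holds 85.6%, 91.5% and 90.7% of these mRNAs, together with most of the coding sequence, and all 30 peaks lay in it. No peak of another gene overlapped these loci on either strand. By their middle, 22 peaks lay in the coding sequence and 8 in the 3′ untranslated region (UTR). The 30 peaks merged into 9 regions, of which 5 had a peak in all 4 lists, 2 in 3 lists and 2 in the 2-week list alone. Within each gene the 5′ edges of the peaks were spaced by multiples of 30 nt to within 1 nt (9 of 9, 7 of 7 and 5 of 5 spacings), so shifts smaller than 30 nt between ages are below the step of the deposited edges.

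The following stretches are the coding parts that every peak of a region had in common, printed 5′ to 3′ on the transcript strand from the mm10 genome, with the m6A core GGAC in capitals. They are shown because they are where each paralogue was called repeatedly. The first 3 overlap one another at the start of the forkhead domain, and the others lie downstream of it. The 8-week peak of the Foxa2 upstream region had a false discovery rate of 0.368.
Foxa1 upstream region, shared by the day 1, 1-week and 2-week peaks, chr12:57542815-57542995, minus strand: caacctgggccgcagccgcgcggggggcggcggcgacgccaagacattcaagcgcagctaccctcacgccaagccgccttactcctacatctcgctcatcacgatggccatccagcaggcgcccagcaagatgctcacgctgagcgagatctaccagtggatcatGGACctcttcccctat
Foxa2 upstream region, shared by the peaks of all 4 lists, chr2:148044376-148044526, minus strand: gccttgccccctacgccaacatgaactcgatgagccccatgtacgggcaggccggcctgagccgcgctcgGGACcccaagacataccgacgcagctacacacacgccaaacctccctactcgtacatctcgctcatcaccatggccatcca
Foxa3 upstream part, shared by the peaks of all 4 lists, chr7:19014781-19014931, minus strand: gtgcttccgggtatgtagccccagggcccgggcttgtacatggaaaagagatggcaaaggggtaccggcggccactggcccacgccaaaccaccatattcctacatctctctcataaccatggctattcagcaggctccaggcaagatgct
Foxa1 downstream coding region, shared by the peaks of all 4 lists, chr12:57542456-57542486, minus strand: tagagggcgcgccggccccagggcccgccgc
Foxa2 stop codon region up to the stop codon, shared by the peaks of all 4 lists, chr2:148043514-148043717, minus strand: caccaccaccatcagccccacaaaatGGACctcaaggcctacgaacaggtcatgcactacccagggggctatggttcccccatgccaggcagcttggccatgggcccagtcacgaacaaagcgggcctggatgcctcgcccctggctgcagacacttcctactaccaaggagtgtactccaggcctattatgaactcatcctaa
Foxa3 downstream part, shared by the peaks of all 4 lists, chr7:19014272-19014482, minus strand: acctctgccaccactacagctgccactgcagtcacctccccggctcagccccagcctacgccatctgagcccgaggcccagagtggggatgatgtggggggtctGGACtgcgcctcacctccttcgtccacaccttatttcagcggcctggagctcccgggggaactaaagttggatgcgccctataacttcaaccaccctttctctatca

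Foxa1 carried 3 peaks at day 1, 3 at 1 week, 4 at 2 weeks and 2 at 8 weeks, and its best peak changed place between the ages. Folds below are the ratio of IP to input, and because the lists share no scale each Foxa fold is given with its percentile or rank among all peaks of its own list. The upstream region (chr12:57542815-57543055), at the start of the forkhead domain, had the highest Foxa1 fold at day 1 (45.5, percentile 74.5) and at 1 week (50.2, percentile 74.8). In the 2-week list the same region had a fold of 3.71, at percentile 2.58, and at 8 weeks it had no peak. The downstream coding region (chr12:57542216-57542636) stood highest at 8 weeks. Its folds were 24.5 at day 1, 15.3 at 1 week, 21.1 at 2 weeks and 74.7 at 8 weeks, at percentiles 57.4, 39.5, 55.7 and 87.2. The 4 peaks of this region had only 31 nt in common, so these folds are of different stretches of it. The region around the stop codon (chr12:57541797-57542156) had folds of 24.5, 10.2, 11.7 and 52.0, at percentiles 57.4, 22, 32.8 and 79.2. Both regions on the 3′ side thus stood highest in the 8-week list, the one without a peak at the forkhead start.

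The stop codon peak of Foxa1 also had its lowest FDR at 8 weeks. Its log10 false discovery rate (FDR) was -8.57 at day 1, -2.05 at 1 week, -8.62 at 2 weeks and -138 at 8 weeks. The 8-week value was better than that of 92.6% of the peaks in its list. The 1-week peak was 121 nt wide and did not reach the stop codon, as it began 20 nt past it, while the other 3 covered it. A further peak of 151 nt near the start of the last exon (chr12:57543175-57543325) was called in the 2-week list alone, with a fold of 7.03 at percentile 10.8. Once the lists were cut to equal length, the downstream coding region of Foxa1 was left with its 8-week peak alone and the stop codon region with its 2-week and 8-week peaks.

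**Figure D1:**
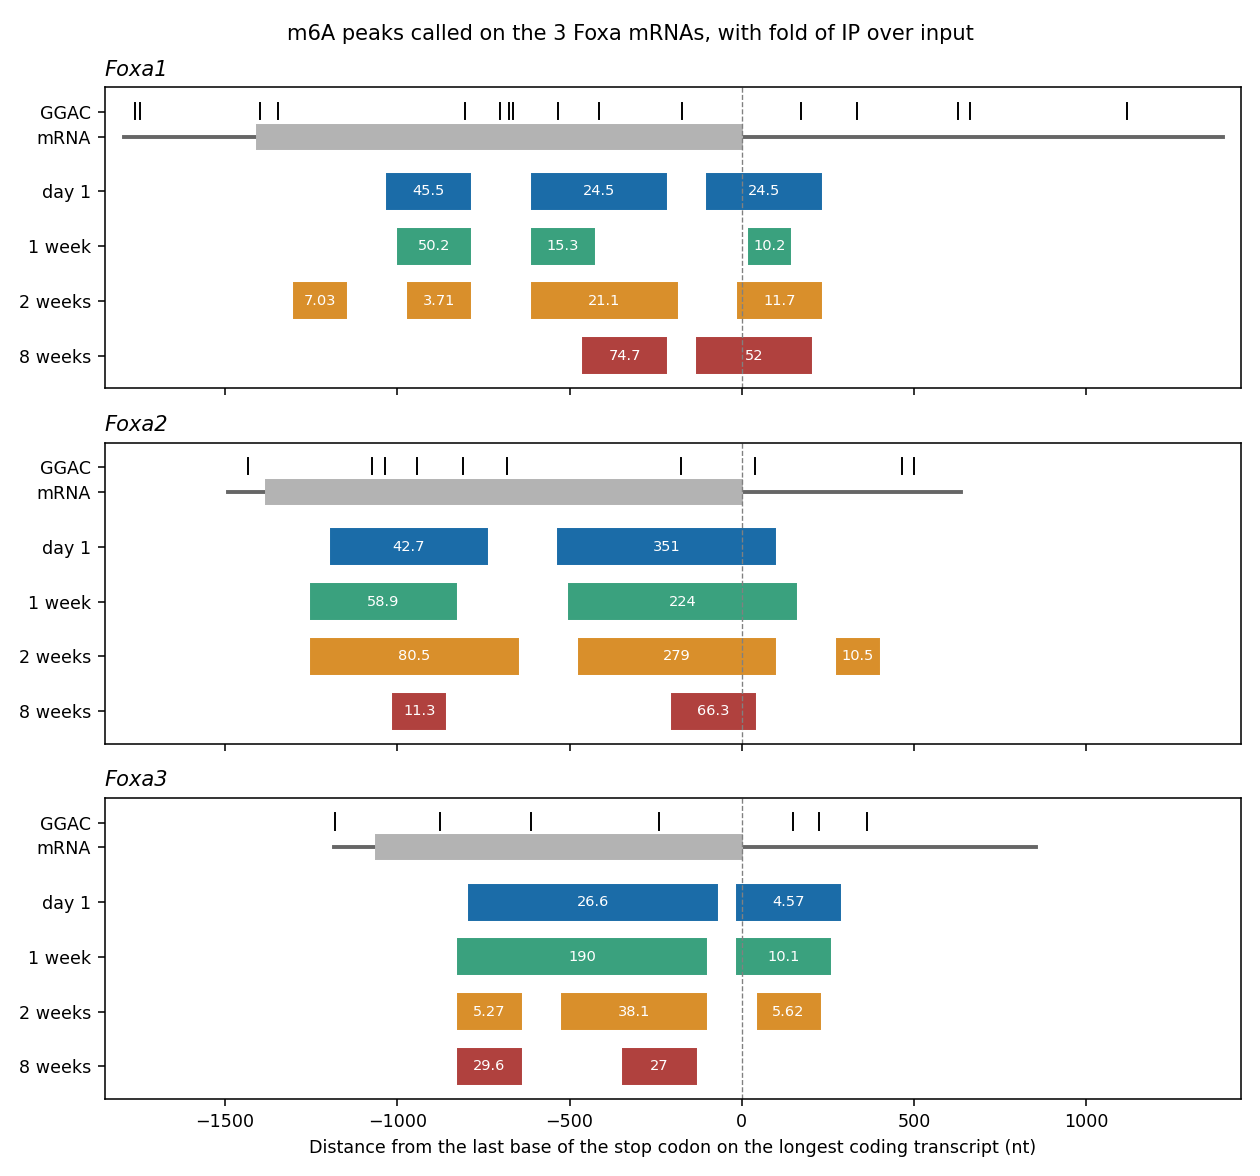
Peaks on the 3 Foxa mRNAs in the 4 lists. The x axis is the distance in nt from the last base of the stop codon (dashed line), grey boxes are the coding sequence, black ticks are GGAC and each coloured bar is 1 peak with its fold of IP over input. All 30 bars lie in the last exon, and at 8 weeks the Foxa1 bar at the forkhead start and the Foxa3 bar past the stop codon are missing.

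Foxa2 had the strongest peak of the family at day 1, 1 week and 2 weeks, always over the stop codon. This region (chr2:148043357-148044047) had a fold of 351 at day 1, 224 at 1 week, 279 at 2 weeks and 66.3 at 8 weeks. These folds ranked 116 of 10161, 361 of 9070, 184 of 8765 and 707 of 4808, at percentiles 98.9, 96.0, 97.9 and 84.9. The peak was long at the early ages and mostly coding: it measured 631 nt at day 1, 661 nt at 1 week and 571 nt at 2 weeks, of which 97, 157 and 97 nt lay past the stop codon. At 8 weeks it measured 241 nt with 37 nt past the stop codon, and all of that stretch was inside the peaks of the other lists. The peak thus kept its place over the stop codon and was shorter on both sides of it at 8 weeks. The median width of all peaks was also lowest in the 8-week list, at 181 nt.

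The second Foxa2 region (chr2:148044166-148044766) lay in the 5′ part of the coding sequence and ran into the forkhead domain. Its folds were 42.7 at day 1, 58.9 at 1 week, 80.5 at 2 weeks and 11.3 at 8 weeks, at percentiles 72.9, 78.5, 86.9 and 30.1. The widths were 451, 421, 601 and 151 nt. The 8-week peak was the single Foxa peak of 30 with an FDR above 0.05 (0.368), in a list where 14.1% of all peaks were above it, beside 1.34% to 3.64% in the others. It lay wholly within the peaks of the 3 earlier lists. Without it, Foxa2 at 8 weeks has the stop codon peak alone. A further, short peak of 121 nt began 277 nt past the stop codon (chr2:148043117-148043237) and was called in the 2-week list alone, with a fold of 10.5 at percentile 27.7.

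Foxa3, the shortest of the 3 proteins, had its main signal inside the coding sequence and not over the stop codon. A single peak of 720 nt covered the whole forkhead domain and the sequence after it at day 1 and again at 1 week, shifted by 30 nt. Its folds were 26.6 (rank 3992 of 10161) at day 1 and 190 (rank 484 of 9070) at 1 week, while the p-values were alike, 1.3e-60 and 2.5e-60. In the 2-week list the same stretch (chr7:19014212-19014961) held 2 peaks, of 181 nt with a fold of 5.27 (percentile 5.52) and of 420 nt with a fold of 38.1 (percentile 72). At 8 weeks it also held 2, of 181 nt with a fold of 29.6 (percentile 63.5) and of 211 nt with a fold of 27.0 (percentile 61.6). The upstream peak of 181 nt had identical edges in both of these lists, and the gap between the peaks opened within the forkhead domain, at the same base in both lists, and ran past the end of the domain at 8 weeks.

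The stop codon side of Foxa3 (chr7:19013853-19014152) had low folds of 4.57 at day 1, 10.1 at 1 week and 5.62 at 2 weeks, at percentiles 6.56, 22 and 6.27, and no peak at 8 weeks. By FDR the same peaks stood much higher in their lists, at percentiles 70.7, 65.0 and 38.2, so the 2 measures of strength placed them differently. The day 1 and 1-week peaks included the last 15 nt of the coding sequence, stop codon included, and the 2-week peak began 46 nt past it.

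Set side by side, the 3 paralogues differed at the stop codon. Foxa2 had a peak over it in all 4 lists, Foxa1 in the day 1, 2-week and 8-week lists and Foxa3 in the day 1 and 1-week lists, 9 peaks in all. Among protein-coding genes with a peak in the list, 38.4% at day 1, 33.1% at 1 week, 31.4% at 2 weeks and 24.7% at 8 weeks had one over the stop codon. The class given in the tables did not mark these peaks: the 4 of Foxa2 were classed as coding and the 5 of Foxa1 and Foxa3 as 3′ UTR.

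Of the 30 peaks, 19 had a fold above the median of their own list: 6 of 7 at day 1, 4 of 7 at 1 week, 4 of 10 at 2 weeks and 5 of 6 at 8 weeks. By FDR it was 18 of 30. Their median width was 391, 270, 210.5 and 226 nt, beside 270, 241, 240 and 181 nt over all peaks. Peaks covered 50.8% of the Foxa2 mRNA at day 1, 50.8% at 1 week, 60.8% at 2 weeks and 18.4% at 8 weeks. For Foxa3 the shares were 50.1%, 48.6%, 38.3% and 19.2%, and for Foxa1 30.1%, 16.1%, 31.1% and 17.9%. In Foxa2 and Foxa3 the share at 8 weeks was the lowest of the 4, and in Foxa1 it was not. The number and width of all peaks were also lowest in the 8-week list, and their part in the narrower Foxa cover was not tested.

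**Figure D2:**
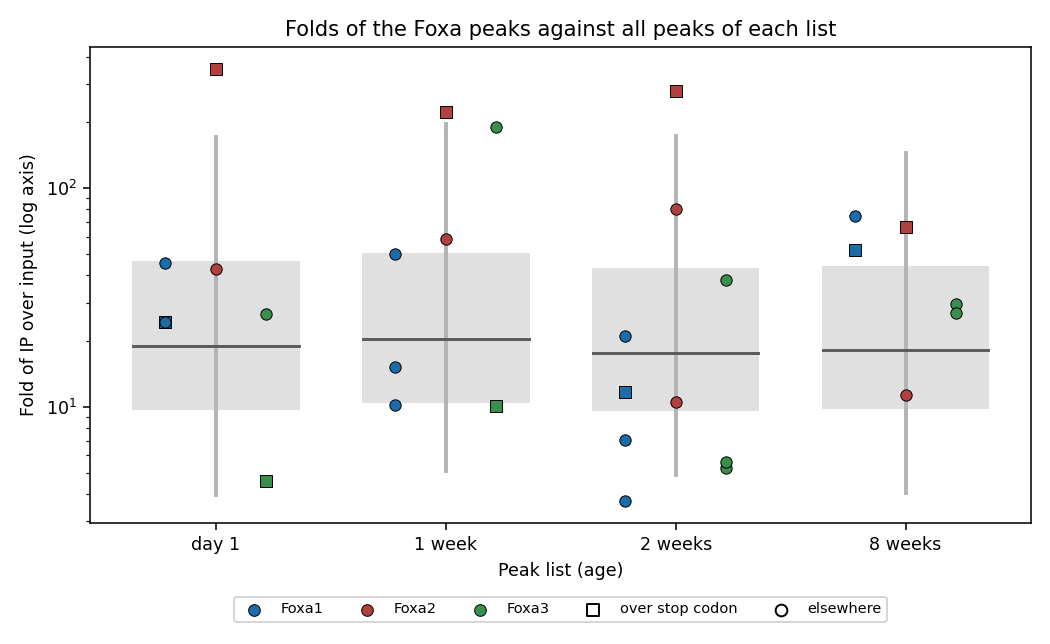
Fold of IP over input of each Foxa peak (log axis) in the 4 lists. Grey boxes span the middle 50% of all peaks of the list, the dark line is their median, the grey bar runs from percentile 5 to 95, and squares are peaks over the stop codon. The Foxa2 stop codon peak lies above percentile 95 in the first 3 lists and within the bar at 8 weeks.

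To compare position between the paralogues, the 3 proteins were aligned. Foxa1 has 468 residues, Foxa2 459 and Foxa3 353, and identity over paired residues was 61.7% between Foxa1 and Foxa2, 55.7% between Foxa2 and Foxa3 and 51.6% between Foxa1 and Foxa3. The most conserved 100 columns of the 504 in the alignment, columns 173 to 272, held 91 columns identical in all 3 proteins, against 66 of the other 404, and contain the forkhead domain. They correspond to residues 168 to 267 of Foxa1, 157 to 256 of Foxa2 and 117 to 216 of Foxa3.

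At day 1, 132 columns were under a peak in all 3 paralogues, at 1 week 56, at 2 weeks 91 and at 8 weeks 0. The longest shared run began at column 164 in each of the first 3 lists and ended at column 211 at day 1, 199 at 1 week and 196 at 2 weeks, which places it over the start of the forkhead domain. At day 1 and 2 weeks sharing was not centred there. After the conserved 100 columns lay 70 of the 132 shared columns at day 1 and 58 of 91 at 2 weeks. Within them lay 39 and 24, and before them 23 and 9. At 1 week 15 of the 56 shared columns lay after the conserved 100 columns, 27 within them and 14 before them. Peaks covered 71.5% of the residues of Foxa2 and 69.4% of those of Foxa3 at day 1, and how much sharing this cover alone would give was not tested. At 8 weeks the overlaps were pairwise. Foxa2 and Foxa3 shared 40 columns, all between columns 131 and 189 at the forkhead start, where Foxa1 had no peak. The Foxa2 side of this overlap was the 8-week peak with an FDR of 0.368. Foxa1 and Foxa3 shared 52 columns between columns 324 and 420, and Foxa1 and Foxa2 shared 43 between column 460 and the C-terminal end. Each pair of mRNAs thus shared a different stretch in the 8-week list, for Foxa2 and Foxa3 only if that peak is counted.

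**Figure D3:**
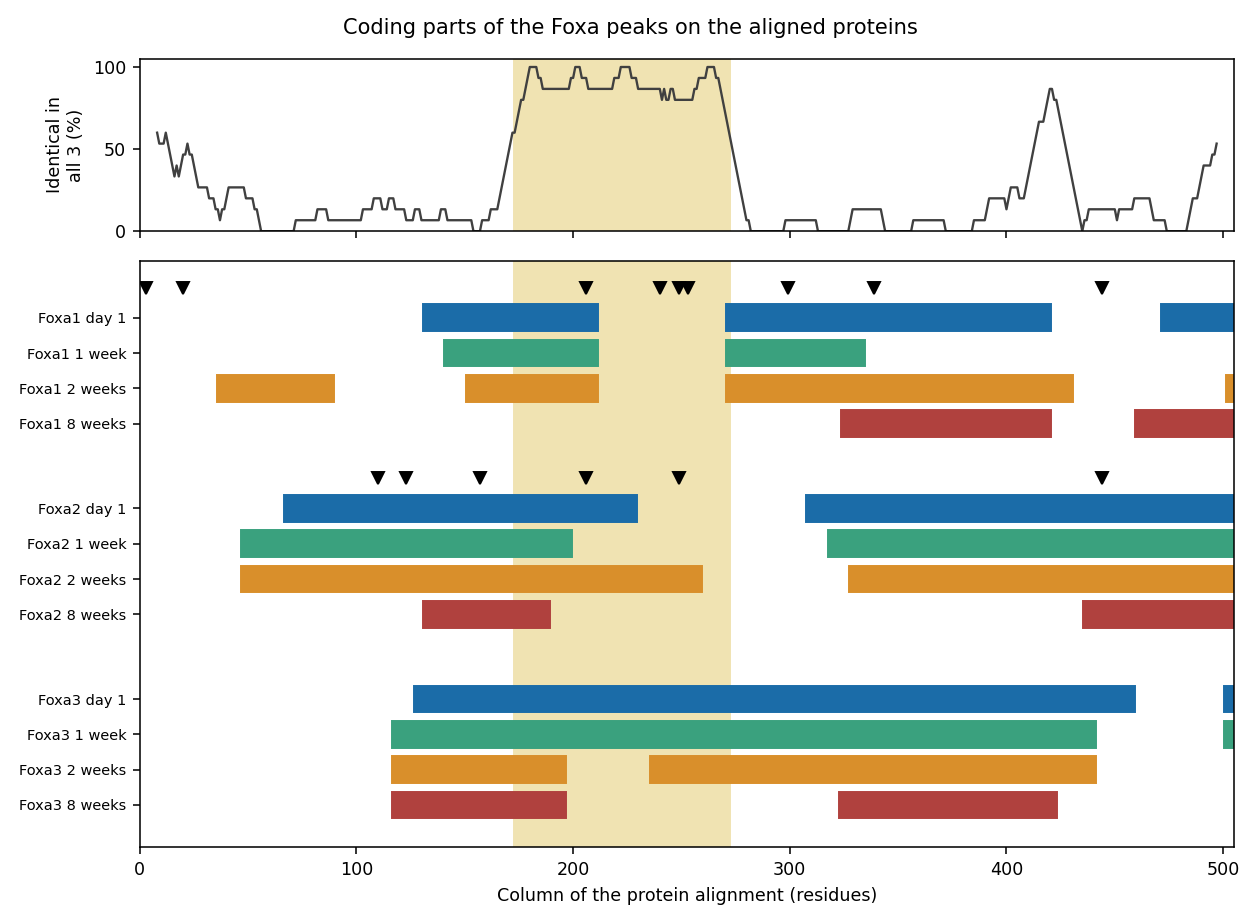
Coding parts of the Foxa peaks on the columns of the protein alignment (x axis, residues), 1 row per gene and list, with the percentage of columns identical in all 3 proteins in windows of 15 columns above. Shading marks columns 173 to 272, and triangles mark GGAC in the coding sequence of Foxa1 and Foxa2. Bars of all 3 genes overlap at the start of the shading in the first 3 lists and nowhere at 8 weeks.

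GGAC was searched on the transcript strand. It was present in 25 of the 30 peaks, beside 78.6%, 75.8%, 74.3% and 69.3% of all placed peaks in the 4 lists, shares that depend on width: of the day 1 peaks within 10% of the 720 nt of the Foxa3 peak, 97.1% held it. The broader 5-letter consensus DRACH (A, G or T, then A or G, then AC, then A, C or T) was present in all 30. Per kb the Foxa peaks held 4.57, 4.26, 4.24 and 3.69 GGAC in the 4 lists, and all placed peaks 5.72, 5.91, 5.84 and 6.01. Foxa1 has 16 GGAC in its mRNA, of which 4 were under a peak in any list, Foxa2 has 10, of which 7 were, and Foxa3 has 7, of which 4 were. In all 4 lists the count was 0 for Foxa1, 2 for Foxa2 and 1 for Foxa3. For 1 of the 2 Foxa2 sites the 8-week peak was the one with an FDR of 0.368. The 31 nt of Foxa1 shared by the 4 downstream coding peaks, printed above, held neither GGAC nor DRACH and were 87.1% G or C.

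Coding GGAC at matching columns were compared between Foxa1 and Foxa2, the 2 longer paralogues. At column 206, inside the forkhead domain, both have one in almost the same surroundings, shown here with 10 nt on each side.
Foxa1, chr12:57542817-57542840, minus strand: agtggatcatGGACctcttcccct
Foxa2, chr2:148044311-148044334, minus strand: agtggatcatGGACctcttccctt
This GGAC was under a peak of Foxa1 at day 1, 1 week and 2 weeks and of Foxa2 at day 1 and 2 weeks, and under a peak of neither at 8 weeks. At 8 weeks the nearest peak edge was 51 nt away in Foxa2, where the upstream peak stops short of it, and 340 nt away in Foxa1.

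A second position, column 444 near the C-terminal end, was also common to Foxa1 and Foxa2 and is shown because the 2 genes differed there.
Foxa2, under the stop codon peak in all 4 lists, chr2:148043678-148043701, minus strand: cccacaaaatGGACctcaaggcct
Foxa1, under no peak in any list, chr12:57542187-57542210, minus strand: agcacaagctGGACttcaaggcat
The Foxa1 copy lay in the gap between the downstream coding region and the stop codon region, 15 nt from the nearest peak edge, which was in the 2-week list, and 40 nt from the nearest 8-week peak. The smaller of these distances is within the 30 nt step of the edges, so the contrast rests on where the caller closed a peak. At column 249, also shared, the GGAC in the forkhead domain was under a peak of Foxa2 in the 2-week list alone and under none of Foxa1.

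The remaining GGAC that stayed under a peak in every list were specific to 1 gene each. In Foxa2 it was a site just before the forkhead domain, and in Foxa3 a site downstream of the domain. At 8 weeks the Foxa2 site was covered only by the peak with an FDR of 0.368.
Foxa2, chr2:148044443-148044466, minus strand: gccgcgctcgGGACcccaagacat
Foxa3, chr7:19014365-19014388, minus strand: tggggggtctGGACtgcgcctcac
Of the sites past the stop codon, those of Foxa1 and Foxa3 are described here. Foxa1 had 1 GGAC under a peak at day 1, 2 weeks and 8 weeks. Foxa3 had 1 under the peaks of the first 3 lists and 1 under those of day 1 and 1 week.
Foxa1, chr12:57541841-57541864, minus strand: ccagttcaaaGGACtgttacttta
Foxa3, chr7:19013976-19013999, minus strand: taactgccatGGACtctttggtag

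The forkhead family was examined next, to see how the 3 Foxa mRNAs compare with their relatives. Of 41 other forkhead genes in the annotation, 13 had at least 1 peak in any list. Of these 13, 11 had one at day 1, 12 at 1 week, 12 at 2 weeks and 8 at 8 weeks. Over all genes with a peak the shares in these lists were 73.3%, 64%, 63.9% and 39.9%. Foxk1, Foxn2, Foxn3, Foxp4 and Foxq1 had one in all 4 lists, 5 of 13 beside 23.8% of all genes with a peak, and 2 of them, Foxn3 and Foxq1, had at least 2 in each. Foxn3, a transcriptional repressor, had its best fold at percentiles 87.1, 92.5, 99.7 and 56.4 of the 4 lists, and the best peak lay in the 3′ UTR in the first 2 lists and in the coding sequence in the others. Foxk1, a regulator of glycolysis and autophagy genes, was at percentiles 96.6, 97.5, 94.3 and 72.6, with the best peak in the 3′ UTR each time. Foxn2 was at percentiles 82.2, 86.0, 98.4 and 90.3, Foxq1 at 82.2, 90.5, 82.3 and 41.5, and Foxp4 at 64.9, 77.4, 46.3 and 24.5. Foxo1, which drives gluconeogenic genes in the fasted liver, had a peak in 3 lists at percentiles 95.7, 45.4 and 4.91 at day 1, 1 week and 8 weeks. Foxm1, a regulator of cell division, was at percentiles 82.9, 65.9 and 22.2 in the first 3 lists and no peak at 8 weeks.

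**Figure D4:**
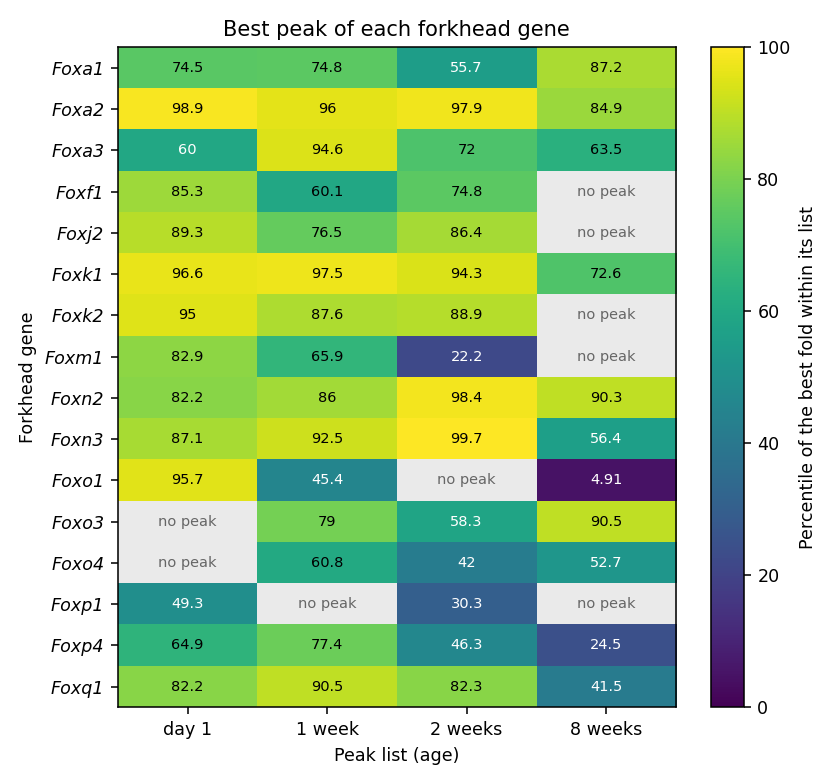
Percentile, within its own list, of the best fold of each forkhead gene with a peak in any list (rows) in the 4 lists (columns). Grey cells had no called peak. The 3 Foxa genes and 5 others have a value in every column, and Foxa2 is at percentile 84.9 or above in each.

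Of 21 factors and corepressors known to act with FOXA proteins or in the same liver network, 18 had a peak in any list and 9 in all 4, with 12, 14, 12 and 16 in the single lists. Over all genes with a peak the shares were 23.8% in all 4 lists and 73.3%, 64%, 63.9% and 39.9% in the single ones. These shares compare with counts out of the 18, and no share over all annotated genes was computed. Among those in all 4, Cebpa, a main regulator of hepatocyte genes, had its best fold at percentiles 98.5, 98, 91.7 and 79.7, and Rxra, the shared partner of many nuclear receptors, at 97.4, 90.8, 95.1 and 85.6. Nr1h4, the bile acid receptor, was at percentiles 56.6, 62.8, 85.2 and 16.1, and Ppara, the fatty acid sensor, at 28.7, 45.3, 95.7 and 92.2. The other 5 were Onecut1, Onecut2, Cebpb, Prox1 and Tle1. Of 14 known FOXA target genes of liver, 8 had a peak in any list. Out of these 8, the counts were 7, 6, 6 and 5 in the single lists and 4 in all 4, to be read against the same shares. The 4 were Cyp7a1, the first enzyme of bile acid synthesis, Apob, the protein of very low density lipoprotein, G6pc, the last enzyme of glucose release, and Tat, which degrades tyrosine. The best fold of Cyp7a1 was at percentiles 70.3, 67.4, 75.7 and 82.9, and that of G6pc at 17.1, 6.04, 30.3 and 16.8. The other 6 had no peak in any list: the secreted proteins Alb, Afp, Ttr, Serpina1a and Igfbp1, and Pck1, an enzyme of gluconeogenesis.

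The standing of the best peak differed among the 3 paralogues. As a measure of likeness, the mean absolute difference of the percentile of the best fold over the 4 lists was 22.5 between Foxa1 and Foxa2, 18.55 between Foxa1 and Foxa3 and 21.87 between Foxa2 and Foxa3. The nearest genes over all genes were Cfap97 (1.99), Onecut1 (3.06) and Kremen1 (3.15) for Foxa1, Kmt2d (1.1), Gm8995 (1.16) and Rexo1 (1.36) for Foxa2, and Rbms1 (3.86), Cops2 (5.16) and C8a (5.23) for Foxa3. These values rest on 4 lists and describe order within each list only.

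Foxa genes are also active in bile duct cells, so markers of both epithelia were read in the same lists. Of 6 hepatocyte markers, 3 had a peak in any list (2, 3, 2 and 3 in the 4 lists): Apob and Cebpa had one in every list, Hnf4a at 1 week and 8 weeks, and Alb, Ttr and Serpina1a in none. Of 4 cholangiocyte markers, 1 had a peak (1, 1, 0 and 0): Sox9 at day 1 and 1 week, while Krt19, Krt7 and Epcam had none. A peak shows called enrichment by the m6A antibody over input and not an expression level, so the label of the tissue cannot be checked further from these lists. Sox9, the only bile duct marker with a peak, had none at 2 and 8 weeks. The forkhead start of Foxa1 and the stop codon side of Foxa3 still had peaks at 2 weeks and had none at 8 weeks. The part of cell composition in these missing peaks was not tested.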

How the data were processed

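m6A-RIP sequencing was performed on liver RNA of wild-type mice. The labels describe poly-T purified mRNA, while the methods describe fragmented total RNA with removal of rRNA, and 2 individuals per age. No source used here states how they were merged into a single list. Per the labels and methods, reads were aligned to mm10 with HISAT2, peaks were called with exomePeak and motifs were searched with HOMER. Each deposited table gave the span of a peak, its gene, a class, a p-value, a log10 FDR score and a fold, the ratio of IP to input, all as the authors made them. Groups were taken from sample titles. Peaks were placed on the longest coding transcript of GENCODE M21. Proteins translated from these transcripts were aligned with MAFFT 7.526. Overlap required 1 base on the same strand. Genes named were the 3 members, other listed genes with a peak in all lists or, in part, chosen after their values were seen (Foxo1, Foxm1, Hnf4a), and the 3 nearest in pattern. The members and gene lists were chosen with earlier results of these data known. Placement was tested on simulated data. Alternatives were stricter FDR and fold limits, lists of equal length, 50% reciprocal overlap, another transcript, another end of the peak and the broader motif. Some listed items are not reported here, and counts of the gene lists leave them out.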

Additional observations from a re-analysis of the deposited data

How the results depend on the processing

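Cutting every list to 4808 peaks lowered the 2-week count of Foxa peaks from 10 to 4, and the regions with a peak in all 4 lists from 5 to 3. A log10 FDR of at most -3 also left 3 such regions, because the 1-week stop codon peak of Foxa1 and the 8-week upstream peak of Foxa2 were removed. The settings for these regions were chosen after seeing the data. The other 51 alternative values stayed within 1.5 times their main count. Among them, 25 of 30 peaks had a partner in another list at 50% reciprocal overlap, against 28 at 1 base. No paired analysis was possible because each age had 1 list and no test was made. The depth of the lists is unknown, which limits any reading of a missing peak.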
